A study of Gallus gallus with 4 samples.

Results

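A DT40 line that stably expresses OsTIR1 was compared with its parental line, DT40, a chicken B cell lymphoma line from the bursa. All 4 arrays of the series belong to this comparison, 2 from each line, and it used the 19436 of 42034 probes (46.2%) that were well above background on all 4 of them. The groups were parental DT40 without added indole-3-acetic acid (IAA, the natural auxin), parental DT40 with 500 µM IAA for 6 h, the OsTIR1 line without IAA and the OsTIR1 line with 500 µM IAA for 6 h. Each group was 1 culture on 1 one-colour Agilent array, so there were no replicates. Every culture was kept at 38.5 °C in DMEM supplemented with serum (10% fetal calf, 1% chicken). IAA was added in ethanol, and the sources used here do not say what the untreated cultures received. They also do not say which promoter drives OsTIR1, or whether the line is 1 clone or a pool.

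TIR1 is an F-box protein of plants. It binds auxin and joins its targets to the SCF ubiquitin ligase, which marks them for breakdown by the proteasome. Animal cells have the SCF core but no TIR1, so an animal cell given OsTIR1, the rice protein, can be made to degrade a tagged protein when auxin is added. Beside the question of the series, whether auxin induces genes in an animal cell, the design allows the line that carries the receptor to be set against the line it came from.

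The 2 lines were compared once without and once with IAA. These comparisons share no array, so each difference was measured on its own 2 cultures. The 2 cultures of a line may come from 1 stock, so a difference that recurs is not known to be an independent repeat. Levels are on a log2 scale, as the processed intensity relative to the 75th percentile of its array, which lay between 168 and 177 intensity units. Differences are OsTIR1 minus parental on that log2 scale. The median difference over the 19436 probes was 0.01 both without and with IAA. On 7 spike-in control probes, whose transcripts are added in known amounts, the mean difference between the lines was at most 0.07 in size in either IAA state. All 4 arrays sat on 1 slide and were scanned in 1 run, so slide and scan do not separate the lines. No probe carries the name OsTIR1, so the transgene could not be used to check the labels. Of 11 B cell markers listed, only RAG1 has a named probe, and it was not above background on any array, so the B cell identity could not be checked by markers. Of the lists for T cells, macrophages, red cells and liver, only TLR4 and VTG2 have named probes, and both were also below background on all arrays. A list of 3 genes drawn up for nerve has named probes for all 3, though CHRND codes for a subunit of the muscle acetylcholine receptor. Of these, NPY1R and CHRND were below background on all arrays, while CHRM4 was above it on all 4.

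The lines differed in a small set of well-measured transcripts, by nearly the same amount with and without IAA. Among the 9718 brighter probes, those at or above the median mean level of 0.34, 24 (0.247% of these probes) were at least 2-fold higher in the OsTIR1 line in both IAA states and 18 (0.185%) were at least 2-fold lower in both, 42 (0.432%) in all. The higher probes were 2.50-fold apart at their median and the lower ones 3.90-fold. At least 3-fold in both states stood 5 of the 24 higher (0.0515% of the brighter probes) and 13 of the 18 lower probes (0.134%), and at least 4-fold 4 and 7. Within 1 IAA state, 29 probes (0.298%) were 2-fold higher and 24 (0.247%) lower without IAA, and 32 (0.329%) and 22 (0.226%) with it. Of these 42 probes, 1 has a gene name, TENM2. The others carry sequence accessions or cluster identifiers that are not paired with a gene in the sources used here, and they are called by those identifiers.

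**Figure D1:**
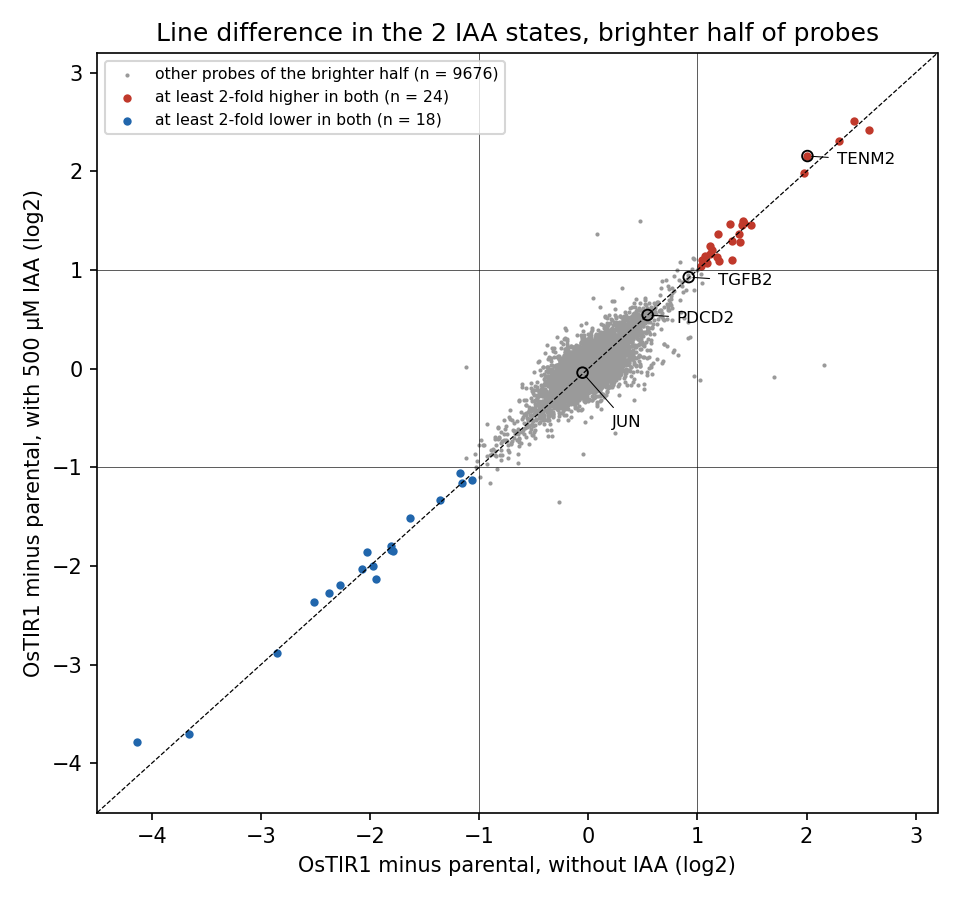
Each point is 1 of the 9718 brighter probes; the x axis is the log2 difference OsTIR1 minus parental without IAA and the y axis the same difference with 500 µM IAA. The 24 higher (red) and 18 lower (blue) probes lie along the dashed line of equality, and JUN lies near 0 on both axes.

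The brighter probe with the largest mean difference on the higher side was CR389789. Its intensity was 108 units without IAA and 105 with it in the parental cultures, and 623 and 564 in the OsTIR1 cultures. Both parental arrays were dim and both OsTIR1 arrays were 5.93-fold and 5.35-fold brighter. AJ719272 read 224 and 210 in the parental cultures and 1181 and 1197 in the OsTIR1 ones. Y12011 started from a far brighter parental signal, 1307 and 1282, and reached 6231 and 6350. Its difference was 2.30 without IAA and 2.31 with it, so the 2 measurements nearly coincided.

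TENM2 codes for teneurin-2, a large transmembrane adhesion protein best known from developing neurons. It read 246 and 203 in the parental cultures and 963 and 906 in the OsTIR1 ones. The mean difference was 2.08 ± 0.10 (SD, n = 2 IAA states). AJ720776 differed to a like degree, with 416 and 395 against 1590 and 1557, with differences of 1.98 in both states. These 5 probes were the higher ones that reached 3-fold in both states, and the next in size, AY657006, was 2.81-fold and 2.75-fold higher.

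The other 19 higher probes were at least 2.05-fold and less than 3-fold apart in each state. Several of them were abundant in both lines. TC210302 read 3150 and 2942 in the parental cultures and 8161 and 8282 in the OsTIR1 ones. BX934680 read 1516 and 1508 against 3953 and 4200. In both cases the OsTIR1 arrays lay well clear of the parental ones, which the 2-fold rule in both states nearly fixes. AJ395650 had mean differences of 1.44, AJ851531 of 1.38, CR353336 of 1.37 and CR386170 of 1.34. AJ851531 was also the higher probe that moved most with IAA, by 0.29 within the OsTIR1 line. The brightest of the set was CR353541, with 6797 and 6602 in the parental cultures and 13533 and 13538 in the OsTIR1 ones, a 2.05-fold difference in both states.

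Lower probes included larger differences. CR406461 read 1757 and 1690 in the parental cultures and only 97.3 and 123 in the OsTIR1 ones, 17.5-fold and 13.7-fold lower. CR353495 read 1154 in both parental cultures and 88.9 and 88.4 in the OsTIR1 line. TC224129 read 742 and 701 against 99.7 and 95.2. In all 3 the residual OsTIR1 signal was still well above background, so these are measured differences and not bounds.

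The other 15 lower probes lay closer together, from 2.08-fold to 5.71-fold in each state. CR391136 read 1377 and 1225 in the parental cultures and 234 and 237 in the OsTIR1 ones. CD732742 had mean differences of -2.32, CR388896 of -2.23 and AJ721035 of -2.05. AF077369 was 3.84-fold lower without IAA and 4.38-fold lower with it. BX267991 read 1434 and 1495 against 355 and 373. CR388765, CR389385 and CR387057 completed the 12 lowest, with mean differences of -1.94, -1.83 and -1.82. No parental array overlapped an OsTIR1 array at any of these probes. The 2-fold rule in both states nearly fixes this, so it is a description.

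**Figure D2:**
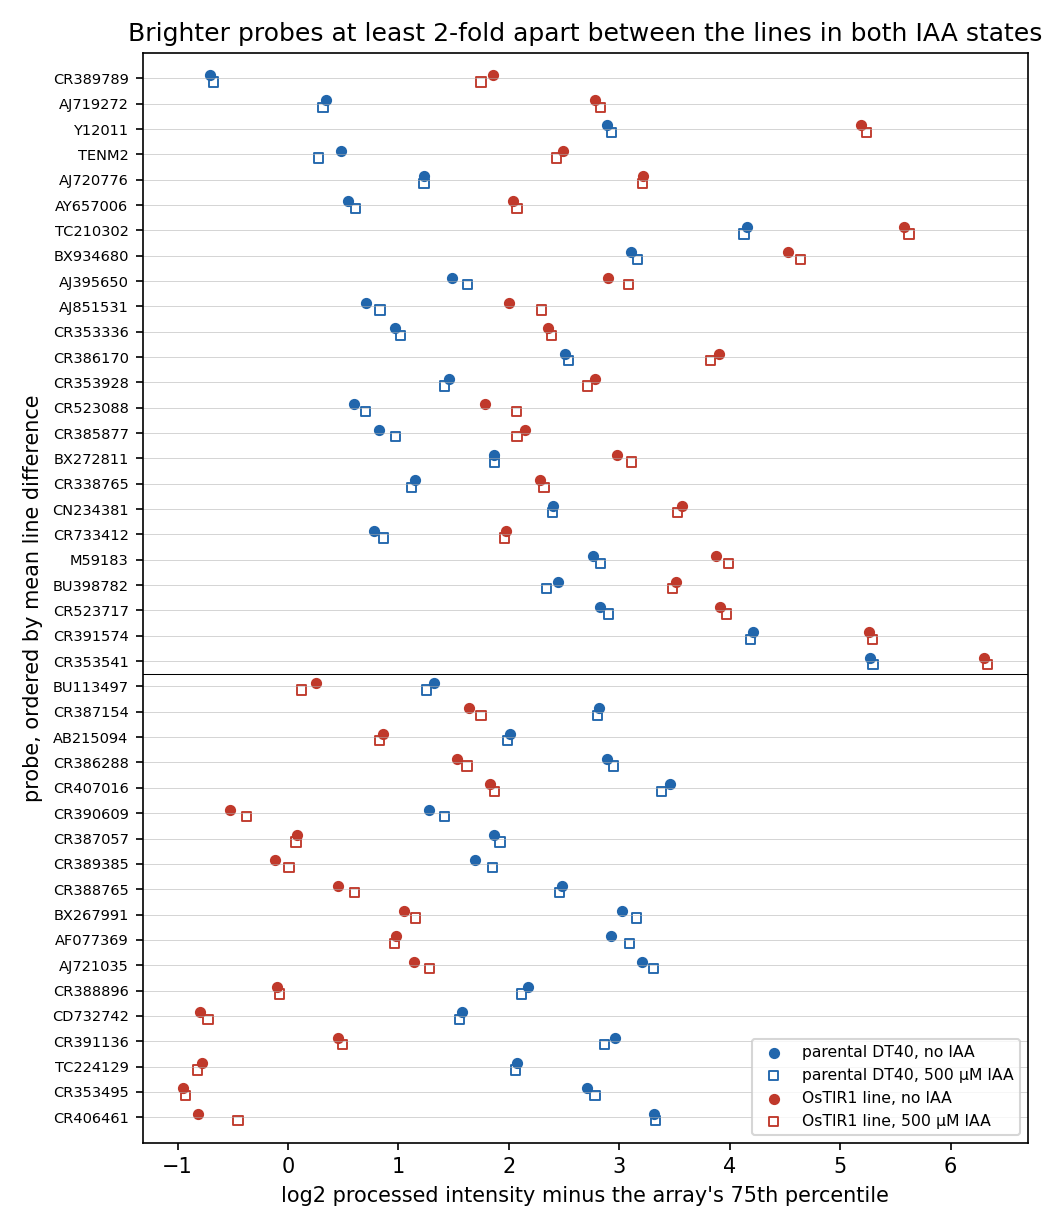
Each row is 1 of the 42 brighter probes at least 2-fold apart in both IAA states; the x axis is the log2 level relative to the array's 75th percentile, blue for parental DT40 and red for the OsTIR1 line, circles without and squares with IAA. Within a line the 2 symbols nearly coincide, with no IAA difference above 0.36, while the lines stand at least 1.04 apart in each IAA state.

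At the edge of the 2-fold rule the values ran on without a gap. Just inside it on the higher side were CR353541 and CR391574, with mean differences of 1.04 and 1.08. Just outside were CR390484 at 0.996 without IAA, a very bright probe with 12675 and 12230 in the parental cultures and 24539 and 24482 in the OsTIR1 ones, and BX931527 at 0.97 without and 1.11 with IAA. On the lower side BU113497 at -1.06 and -1.13 and CR387154 at -1.17 and -1.06 were just inside, while CR407168 at -0.998 with IAA and BX931759 at -0.995 without it were just outside. With a threshold of 1.5-fold in both states the brighter probes held 76 higher (0.782%) and 86 lower (0.885%), 162 (1.67%) in all. No brighter probe was 1.5-fold apart in opposite directions in the 2 states.

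The size of the line difference can be set against the difference between 2 cultures of 1 line. Over the 42 probes, the largest difference between the cultures of a line was 0.29 among the higher and 0.36 among the lower probes. For each of the 42 probes the smaller of its line differences was at least 4.16 times its larger IAA difference. The median gap between the line differences in the 2 IAA states was 0.06 for both sets. These probes were chosen for passing a threshold in line difference in both states, so the ratio and this gap are descriptions. Over all 9718 brighter probes, which were not chosen by their difference, this median gap was 0.09. The SD of the line difference over these probes was 0.24 without IAA and 0.23 with it. The IAA difference had an SD of 0.11 in parental DT40 and 0.10 in the OsTIR1 line. Line differences without and with IAA had a Pearson's r of 0.81 and a Spearman's rho of 0.63 across the brighter probes, given as a description since probes of 1 array share its RNA and labelling.

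**Figure D3:**
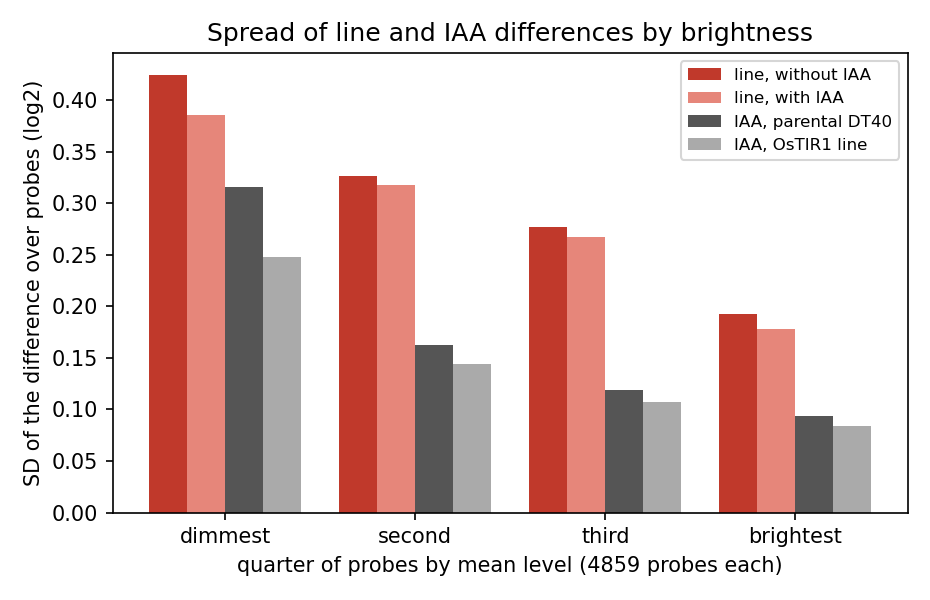
Bars give the SD over probes of the log2 difference between lines (red, without and with IAA) and between IAA states (grey, in each line) for 4 bins of 4859 probes from dim to bright. Line differences were more spread than IAA differences in every bin, from 0.42 and 0.39 against 0.32 and 0.25 in the dimmest to 0.19 and 0.18 against 0.09 and 0.08 in the brightest.

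A limma fit with line and IAA terms was made over all 19436 probes. The fit leaves 1 degree of freedom for the residual, so the 2 IAA states stand in for repeats of the line comparison. At a Benjamini-Hochberg adjusted p under 0.05 it called 440 probes higher (2.26%) and 470 lower (2.42%) in the OsTIR1 line, 910 (4.68%) in all. All 42 brighter probes of the 2-fold set were called, with limma adjusted p from 0.00406 to 0.0184, though they were chosen by the same differences, so this count is no further evidence. Among the brighter probes 169 (1.74%) were called higher and 145 (1.49%) lower, 314 (3.23%) in all, against 596 (6.13%) of the dimmer probes. Of all calls, 171 higher and 117 lower ones had a fitted difference under 1.5-fold. Each line is represented by 2 cultures that differ in IAA. The residual is the gap between the line differences in the 2 IAA states, drawn toward a value shared over all probes. A shift with IAA that both lines share does not enter it. These p-values therefore do not measure the spread between cultures of 1 line. With 1 array left out, in a fit on line alone, the line with 1 array is assumed to vary like the other, whose 2 arrays give the spread. Without the untreated OsTIR1 array 4 probes were called higher and 15 lower, and without the treated one 4 and 17. Without the untreated parental array they were 435 and 440, and without the treated one 607 and 748. Without an OsTIR1 array TENM2 had an adjusted p of 0.0662 and 0.0605, at differences of 2.05 and 2.11. A fit that also took probes above background on only 2 or 3 arrays called 0 of 23100, with 4333 at an unadjusted p under 0.05. Median scaling called 830 higher and 435 lower, so the share of higher probes among the calls, 48.4% here, was 65.6% there.

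Few of the measured probes have a gene name. The reference table pairs 50 genes with probes, of which 22 were above background on all arrays, and 3 of these were called by the limma fit, all higher in the OsTIR1 line, beside 4.68% of all 19436 probes called. TENM2, described above, had an adjusted p of 0.00754. TGFB2, a secreted growth factor of the TGF-beta family, read 238 and 193 in the parental cultures and 438 and 368 in the OsTIR1 ones. Its difference was 0.92 ± 0.01 (SD, n = 2 IAA states), just under 2-fold, with an adjusted p of 0.0185. PDCD2, which in human cells is needed for assembly of the small ribosomal subunit, read 4564 and 4464 against 6462 and 6510, a difference of 0.54 in both states with an adjusted p of 0.0405. The lines did not overlap for any of these 3 genes, but the genes were picked by that call, so this is a description. TGFB2 and PDCD2 belong to a list of 6 growth, signalling and transcription genes, of which 4 were measured and these 2 were called. The list was chosen with earlier results of these data known, so this count is a description. All 3 lost the call when either OsTIR1 array was left out, with adjusted p from 0.0605 to 0.136.

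The remaining 19 named genes did not pass the test. Of the 22 differences, 20 had 1 sign in both states. The share over all probes was not computed, so this count is a description. With normexp correction 7 of the 22 were called, beside 3206 of all 19436 probes. With a trend and robust prior 5 were called, beside 3112 of 19436. The main fit called 910 of them, so calls rose over the whole array under both settings. Both added LPIN2 (limma adjusted p of 0.00596 and 0.00604) and GPHN (0.0113 and 0.0145). Normexp also added EXOSC10 (limma adjusted p of 0.0457) and CHRM4 (0.0134). CHRM4 was also called without the treated parental array (0.0094). LPIN2, a phosphatidate phosphatase of lipid synthesis, had differences of 0.32 and 0.27 without and with IAA. GPHN, which codes for the scaffold protein gephyrin, had -0.23 and -0.28. EXOSC10, a catalytic subunit of the RNA exosome and the brightest of them, had 0.07 and 0.23. The transcription factor genes JUN and NRF1 had -0.05 and -0.04, and 0.01 and -0.07. CDK6, a kinase of the early cell cycle, had -0.07 and -0.10. ARFGAP2, a regulator of COPI vesicle transport, had 0.10 and 0.04. MC1R, a melanocortin receptor of pigment cells, had 0.49 and 0.22, the connexin gene GJA4 0.17 and 0.16, and DNAJC27 0.25 and 0.07. TRIM41, a ubiquitin ligase gene, had -0.07 and -0.14 and CKMT1B, a mitochondrial creatine kinase gene, -0.23 and -0.11. The scanner software's error estimate gives each of these differences a 95% interval of at least 0.40 to either side. By that estimate alone, a smaller difference is not told apart from 0 at a single pair of spots. For MC1R, which read only 19.4 to 27.1 units, the half-width was 0.66 without IAA and 0.58 with it, wider than its differences.

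A list of 12 receptor and channel genes holds receptors for hormones, neuropeptides, acetylcholine and odorants and the innate immune receptor TLR4. Of these 12, 6 were below background on all arrays and 5 were measured on all 4, beside 46.2% of all probes. The limma fit called 0 of the 5, beside 4.68% of all probes. CHRNG and CRHR1 had an unadjusted limma p under 0.05, as did 24.2% of all probes in the fit. Mean differences of the 5 ran both ways, from -0.49 to 0.28 with a median of 0.15, beside 0.01 over all probes. CRHR1, the receptor for corticotropin-releasing hormone, had differences of -0.26 and -0.42 without and with IAA, PRLHR2 of 0.31 and 0.11, and OLFR6, an olfactory receptor gene, of 0.04 and 0.26. CHRNG, a subunit of the muscle acetylcholine receptor, read 95.2 and 94.5 in the parental cultures and 117 and 110 in the OsTIR1 ones. CHRM4, a muscarinic receptor, read 78.7 and 38.2 against 39.4 and 37.3. The untreated parental array alone stood high there, and its probe lies in 1 of 2 parts of the surface, out of 16, where probes were more often above background on that array alone. AVPR2 read 21.2 on that array and was below background on the other 3, and its probe also lies in these 2 parts. Outside this list, FUT4 and MOS also read highest on that array, with 20.8 and 11.0, but their probes lie elsewhere on the surface. SOCS2 and VTG2 lie in these 2 parts and read only 3.12 and 3.43 on it. FUT4, MOS, SOCS2 and VTG2 were below background on every array. The role of the place on the surface in these values was not tested.

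**Figure D4:**
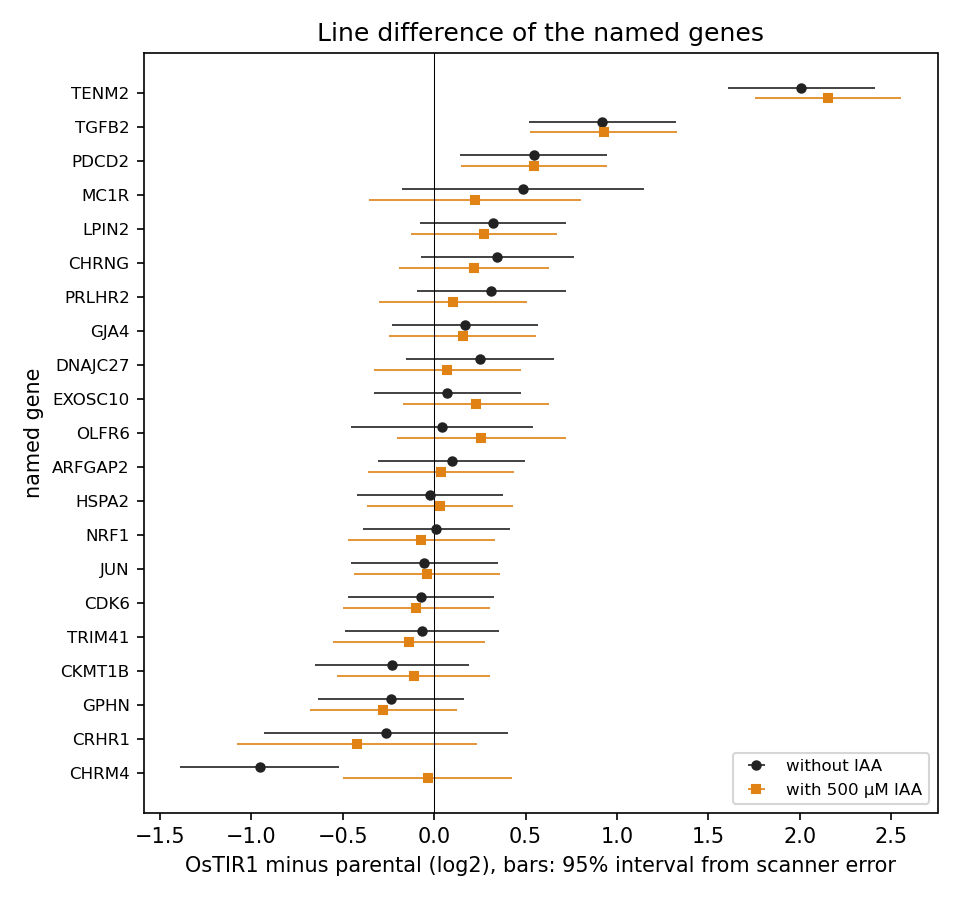
For 21 of the named genes above background on all arrays, the x axis gives the log2 difference OsTIR1 minus parental without (black) and with (orange) 500 µM IAA, with 95% intervals from the scanner software's error estimates. TENM2, TGFB2 and PDCD2 lie above 0 in both states, and CHRM4 lies at -0.95 without IAA and -0.04 with it.

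Probes named for microRNAs were detected throughout. All 244, for 118 microRNA names, were above background on all 4 arrays, against 46.2% of all probes, and they covered a narrow range of levels, from 0.09 to 1.97 between the 5th and 95th percentiles, against -2.99 to 6.27 for other probes. The range took in microRNAs best known from other tissues. The 2 probes of gga-mir-122a, a liver microRNA, read 185 and 242 in untreated parental DT40 and the 2 of gga-mir-206, a muscle microRNA, read 509 and 536. Levels of these probes were therefore not read as levels of the named microRNAs. None of the 244 was called by limma, beside 4.68% of all measured probes and 3.23% of the brighter ones. None was 1.5-fold apart in the same direction in both states, beside 1.11% of all measured probes higher and 1.63% lower, 2.73% together. Among the brighter probes, which include 211 of the 244, that joint share was 1.67%. Without IAA 2 of the 244 were 1.5-fold apart and with IAA 2 others, each with a single low parental array. One probe of gga-mir-183 read 69.7 in untreated parental DT40 and 231, 264 and 256 on the other arrays, while its second probe read between 265 and 281 on all 4. One probe of gga-mir-125b read 105 in treated parental DT40 and 296, 304 and 271 elsewhere, while its second probe lay between 264 and 280.

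With the main values, dimmer probes held more and less repeatable differences. With normexp, 27 higher and 27 lower probes were 2-fold apart in both states over all probes, and 23 and 15 among the brighter ones. Brightness is the mean level over all 4 arrays, so a probe bright in 1 line alone can count as dimmer, such as BU322203 below. Below the median level, 31 probes were at least 2-fold higher in both states (0.319%) and 74 were lower (0.761%), which makes 55 (0.283%) and 92 (0.473%) among all 19436, 147 (0.756%) in all. Without IAA alone 103 (0.530%) were 2-fold higher and 197 (1.01%) lower, and with IAA 89 (0.458%) and 141 (0.725%). At least 3-fold in both states stood 8 (0.0412%) and 37 (0.190%), 45 (0.232%) in all. The limma fit called 31 of the 31 and 73 of the 74, beside 4.68% of all probes, but these probes were chosen by the differences the fit tests. Their line differences in the 2 states lay up to 0.38 apart for higher and 1.05 apart for lower probes. BU322203 stood out with 805 and 850 in the parental cultures and 11.5 and 11.4 in the OsTIR1 ones, a mean difference larger than that of any other probe above background on all 4 arrays, with an adjusted p of 0.00229. CR352358 read 201 and 184 against 13.2 and 12.8. CO635521 read 198 and 204 against 23.1 and 13.0, so its differences of -3.05 and -3.98 were less alike. In 33 of the 92 lower probes the OsTIR1 signal was under 20 units on both arrays, against a lowest signal above background of 5.71 and 6.12 there. On the higher side BU425009 read 38.5 and 41.9 in the parental cultures and 158 and 182 in the OsTIR1 ones.

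Some probes were above background in 1 line only. The arrays differed in detection as a whole. Of all 42034 probes, 47.8% and 49.9% were above background on the parental arrays, without and with IAA. On the OsTIR1 arrays 58.0% and 55.4% were. Of 37 probes above background on both parental arrays and neither OsTIR1 array, all 37 differed by a bound of 2-fold or more whether or not IAA was present. The parental arrays needed a higher signal to be above background than the OsTIR1 arrays, as given below. That gap in detection limits favours a bound on this side, so the count is a description. The bound sets the measured signal against the lowest signal above background on the dim array, or the dim probe's own if higher. BX936126, picked after its values were seen like the other probes of this paragraph, read 244 in both parental cultures and 8.12 and 8.48 in the OsTIR1 line, at least 29.2-fold and 28.7-fold lower, in the bright parts of the surface. CR352900 read 171 and 170 in parental DT40 and was at least 29.0-fold and 27.9-fold lower. On the opposite side 2090 probes were above background on both OsTIR1 arrays and neither parental one, but only 6 of them reached such a bound, and their median signal where lit was 10.9 units. The lowest signal called above background was 14.3 and 10.4 on the parental arrays and 5.71 and 6.12 on the OsTIR1 arrays, a gap that works for a bound in the 37 and against one in the 2090, and its part in either count was not tested. CR522936 read 50.1 and 51.5 in the OsTIR1 line and was at least 3.61-fold and 4.94-fold higher.

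Where an identifier has several probes they can be set against each other. Of 106 such identifiers measured with over 1 probe, microRNAs left out, the mean line differences of the probes lay 0.07 apart at the median and at most 0.58. None was in the 2-fold set. Of their 214 probes, 4 were at least 1.5-fold apart in both IAA states. The median therefore mostly describes probes that differed little between the lines. AJ720857 had differences of 0.44 and 0.45 on 1 probe and 0.60 and 0.59 on the other. BU215776 had -0.71 and -0.91 on 1 probe and -1.12 and -0.72 on the other. BX931775 had -0.71 and -0.59 on 1 probe and -0.04 and -0.09 on the other, a dimmer probe, so its probes disagree.

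The 42 brighter probes were spread over the array surface. Of 16 equal parts, the 24 higher probes lay in 14 and the 18 lower ones in 12. In the 2 parts where the untreated parental array was bright lay 2 of the 24 and 3 of the 18, while these parts hold 12.2% of the brighter probes. Without these parts 22 higher and 15 lower probes remained.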

How the data were processed

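Total RNA of 4 cultures was labelled with Cy3 and hybridised to 1 Agilent array each, per the labels. Per the file headers, the deposited intensities were made by Agilent's Feature Extraction software (10.5.1.1), which subtracted background and detrended each array. The authors' series-level table holds the same intensities times 1 constant per array (column medians 65.6, 58.8, 60.5 and 55.9 in the order parental without and with IAA, OsTIR1 without and with IAA). The origin of the constants is unknown.

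Signal was log2 of the processed intensity minus each array's 75th percentile over the 42034 probes that are not controls. No probe was saturated. Gene symbols came from a RefSeq table of GRCg7b by accession: 51 of 66 probes with a RefSeq accession matched, for 50 genes. For HSPA2, with 2 probes, the brighter was used. The 95% intervals of single differences use the software's error per spot and cover no variation between cultures. limma 3.58.1 in R 4.3.3 fitted line and IAA, tested first on simulated data. Alternatives were median, quantile and cyclic loess scaling, normexp, the series-level table, other filters, folds and priors, and each array left out. Normexp was run with an offset of 50 units on median signals, as the files used hold no mean signals.

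Named were all measured genes but 1, which is not reported here, the 12 highest and 12 lowest brighter probes and the 5 highest and lowest of all, probes at the edge of 2-fold and microRNAs 1.5-fold apart in both states. Other probes were picked after their values were seen. The probes, lists and tests were chosen with earlier results of these data known.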

Additional observations from a re-analysis of the deposited data

Results flagged for a closer look

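For 2 named genes the line difference had opposite signs in the 2 IAA states. HSPA2, an HSP70 family chaperone gene, was at -0.023 without IAA and 0.031 with it on its brighter probe, while its other probe was at 0.14 and 0.072. NRF1, a transcription factor gene for mitochondrial function, was at 0.012 without IAA and -0.069 with it. The difference between the states was not tested, since each state has 1 array per line, and all 4 values are smaller than the 0.40 half-width of their 95% intervals from the scanner software.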

How the results depend on the processing

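Among the brighter probes, the counts of 24 higher and 18 lower were 22 to 29 and 15 to 20 under median, quantile and cyclic loess scaling, normexp, the series-level table and without the bright parts of the surface. All 42 kept their sign under the 5 alternatives of scaling and values, and 22 of the 24 and 15 of the 18 stayed past 2-fold with normexp. Brightness taken from the line with the higher level, which was added with the values known, gave 30 and 25. Thresholds of 1.5-fold and 3-fold gave 76 and 86, and 5 and 13. Over all 19436 probes, 55 higher and 92 lower became 27 and 27 with normexp, equal numbers where 37.4% were higher before. They were 215 and 316 at 1.5-fold, and 8 and 37 at 3-fold. The normexp setting added 50 units to every signal, which shrinks the folds of dim probes. The part of this offset in the normexp counts was not tested. The limma calls, 440 higher and 470 lower, were 830 and 435 with median scaling, which moved the median difference by 0.07, 1540 and 1666 with normexp, 1656 and 1456 with a trend and robust prior, 0 and 0 with probes above background on at least 2 arrays, and 0 and 0 with no filter on dim probes (12567 of 42034 at an unadjusted p under 0.05). Without the replicate block, the IAA term, they were 753 and 656. Leaving out 1 array gave 4 to 607 higher and 15 to 748 lower. TENM2 had adjusted p from 2.18e-18 to 0.130 over these settings. Of 48 members followed through every setting, 11 values changed sign, all near 0 and none called: HSPA2 at -0.020 with quantile normalization, -0.023 in untreated arrays and -0.014 to 0.022 with 1 array left out, JUN at 0.028 with median scaling and -0.11 to 0.016 with 1 array left out, NRF1 at 0.046 with median scaling, 0.012 in untreated arrays and -0.086 to 0.029 with 1 array left out, and OLFR6 at -0.0093 with normexp. Median scaling moved all probes alike, which turns any difference just below 0; the other causes were not tested. Among dimmer probes the line differences in the 2 states had a median gap of 0.17, and there was 1 culture per group.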
